A study of Mus musculus with 4 samples.

Results

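The genes described here are *Ifng*, 5 granzyme genes (*Gzma*, *Gzmb*, *Gzmc*, *Gzmk* and *Gzmm*) and 4 other genes of cytotoxic granules (*Prf1*, *Nkg7*, *Srgn* and *Ctsw*). They were chosen by symbol, with earlier results of these data known. Each of the 10 matched a single row among the 53379 genes of the table. Expression was measured by RNA-seq in group 3 innate lymphoid cells (ILC3s) from the small intestinal lamina propria of mixed bone marrow chimeras, to find cell-intrinsic effects of Brg1, the ATPase of a chromatin remodeling complex that *Smarca4* encodes. Recipients were sublethally irradiated Rag2-/-Il2rg-/- mice, which lack T cells, B cells and innate lymphoid cells of their own. They received equal numbers of bone marrow cells of both donors, and ILC3s were sorted 6 to 7 weeks later. Brg1-sufficient ILC3s came from Thy1.2Rag1-/-Smarca4f/f donors, which carry the floxed allele without Cre, and were gated as Thy1.2highThy1.1-CD45low. Brg1-deficient ILC3s came from Thy1.1Thy1.2Rag1-/-Smarca4f/f donors that also carried a Cre transgene and were gated as Thy1.2highThy1.1+CD45low. Both donors lacked Rag1. The ages of the animals and any pooling of animals are not given in the sources used here. Each group had 2 libraries, called biological duplicates by the study. The labels do not say whether they came from separate mice, so p-values measure the spread between these libraries, which may in part be technical.

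Interferon gamma, the product of *Ifng*, is the signature cytokine of type 1 lymphocytes and activates macrophages and antiviral defence. Cytotoxic lymphocytes store perforin and granzymes in secretory lysosomes. Perforin opens a path into the target cell, and the granzymes, a family of serine proteases, then cleave proteins there. In ILCs of the gut, *Ifng* and granule genes are best known from ILC1s and NK cells, and T-bet+ NKp46+ ILC3s share a part of this program.

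Of the 10 genes, *Ifng* and *Ctsw* were lower in Brg1-deficient ILC3s at an adjusted p under 0.05, and none was higher. The test was limma with Benjamini-Hochberg adjustment on log2(FPKM + 1) over the 14739 genes with a mean above 1 FPKM (fragments counted relative to transcript length and to library size) in either group. By that test 0.224% of all genes were lower and 0.0814% were higher. *Gzmk* and *Gzmm* were too low to be tested, so 8 of the 10 were. In 5 of the 8 (*Ifng*, *Ctsw*, *Nkg7*, *Prf1* and *Gzmc*) both Brg1-deficient libraries were below both controls, which was so for 20.2% of all genes tested. In *Gzma* and *Srgn* both were above the controls, as in 24.4% of all genes, and *Gzmb* overlapped. At an unadjusted p under 0.05, 5 of the 8 were lower and 1, *Gzma*, was higher, against 6.47% and 6.12% of all genes. The median log2 fold change of the 8 was -2.01, and that of all genes tested was 0.03. As the genes were chosen with earlier results known, these contrasts with all genes are a description and no test of the group.

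**Figure D1:**
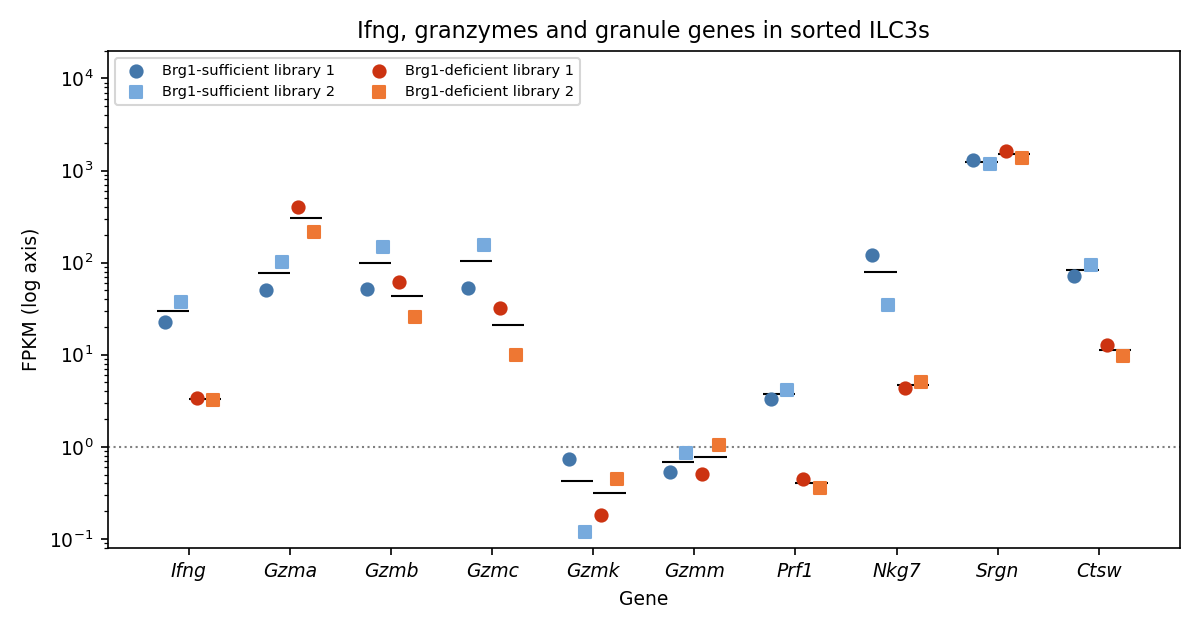
FPKM of each gene (log axis) in the 4 libraries. Circles are library 1 and squares library 2 of each group, black lines are group means of 2 libraries, and the dotted line marks 1 FPKM. *Ifng*, *Prf1*, *Nkg7* and *Ctsw* sit lower in both Brg1-deficient libraries, *Gzma* sits higher, and *Gzmk* and *Gzmm* lie near or under 1 FPKM throughout.

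The targeted gene, *Smarca4*, had 17.1 and 16.7 FPKM in controls against 9.98 and 9.03 FPKM in ILC3s of Cre-carrying origin, where both values were lower. Its log2 fold change of -0.77 missed the threshold (limma, adjusted p = 0.153). Sequencing depth is unknown, since the values are FPKM and not counts. Of 13693 ranks with a mean above 1 FPKM, 99.3% held values within 1% of each other in the 4 libraries, so a difference in total RNA between groups would not be seen. In sorted bulk cells, fewer cells of a type and less RNA per cell cannot be told apart. Of the markers of ILC3s, *Il22* lay between 8328 and 21159 FPKM in the 4 libraries. Genes listed as markers of other cells also differed, but some of them, such as *Ncr1*, are expressed by subsets of ILC3s as well. The summed FPKM of 10 ILC2 genes was 379 and 213 in controls and 116 and 141 in Brg1-deficient libraries. In the latter, *Gata3* at 74.5 and 105 FPKM made up most of it. Of 9 ILC2 genes tested, 8 were lower and 1 higher without overlap, against 20.2% and 24.4% of all genes tested. The higher one was *Hpgds*, at 2.31 and 6.61 FPKM in controls against 20.6 and 19.9 FPKM. The summed FPKM of 10 T cell genes was 431 and 268 in controls against 120 and 112. Mature T cells need Rag1 and Rag2, which the donors and the recipients, respectively, lacked. Most of the T cell sum came from *Trbc1*, *Trbc2* and *Cd4*, of which *Trbc1* passed the test as lower (110 and 62.5 against 10.6 and 10.25 FPKM; limma, adjusted p = 0.0414). Of 8 T cell genes tested, 6 were lower without overlap, as were 20.2% of all genes tested, and 2 (*Trac* and *Cd8b1*) overlapped. The 6 included *Cd3d*, *Cd3e* (8.95 and 7.02 against 1.01 and 3.08 FPKM) and *Cd3g* (37.2 and 10.7 against 1.21 and 5.04 FPKM). *Cd5* and *Cd8a* did not exceed 1.47 FPKM. The sum of 12 NK cell and ILC1 genes was 576 and 708 against 486 and 453, most of it from *Il2rb* and *Klrk1*. Of this list 9 genes were tested. Of these, 6 were lower and 2 (*Klrk1* and *Itga2*) higher without overlap, against 20.2% and 24.4% of all genes tested. The median log2 fold change of the 9 was -1.12. *Ncr1*, which encodes NKp46, passed the test as lower, at 31.3 and 35.5 FPKM against 5.37 and 6.02 FPKM (limma, adjusted p = 0.033), while *Eomes*, which defines NK cells, did not exceed 0.41 FPKM in any library. The part of other cells, or of ILC3 subsets such as NKp46+ ILC3s, in the results was not tested. For a single gene, the smallest two-sided p of an exact permutation test over 4 libraries is 0.333, and the p-values given here therefore depend on limma's pooling of variance over genes.

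*Ifng* (ENSMUSG00000055170) lies on the plus strand of chromosome 10 from 118441046 to 118445892 (GRCm38). Control ILC3s had 22.8 and 37.3 FPKM, and Brg1-deficient ILC3s had 3.42 and 3.22 FPKM. The latter were nearly equal and both lay far under the lower control. The mean went from 30.02 ± 10.3 to 3.32 ± 0.141 FPKM (SD, n = 2 each), or 11.1% of the control level. On the log2 scale *Ifng* fell by 2.80 (SE 0.267; limma, adjusted p = 0.0386). This moved *Ifng* from rank 3247 to rank 9778 by mean FPKM among the genes tested. *Gm49751*, a gene model that overlaps *Ifng* on the same strand, did not exceed 0.20 FPKM.

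*Ctsw* (ENSMUSG00000024910), on the minus strand of chromosome 19 from 5465043 to 5468507, encodes cathepsin W, a cysteine protease of NK cells and cytotoxic T cells. It was at 71.7 and 93.7 FPKM in controls and at 12.7 and 9.72 FPKM in Brg1-deficient libraries. Replicates differed by at most 1.31-fold, and the groups lay 7.39-fold apart. On the log2 scale *Ctsw* fell by 2.78 (SE 0.211; limma, adjusted p = 0.033). *Fibp*, a gene on the opposite strand, overlaps *Ctsw*, and without strand information their shared reads cannot be told apart. *Fibp* was at 35.3 and 39.8 FPKM in controls and at 29.9 and 41.2 FPKM in Brg1-deficient libraries, and its groups overlapped. Both calls were lost when any single library was left out, with adjusted p from 0.159 to 0.596 for *Ifng* and from 0.194 to 0.523 for *Ctsw*. The log2 fold changes stayed between -3.15 and -2.46 and between -2.97 and -2.59.

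*Nkg7* (ENSMUSG00000004612; chromosome 7, 43437073 to 43438249) encodes a membrane protein of cytotoxic granules that is needed for their release. It was at 121.9 and 35.1 FPKM in controls and at 4.33 and 5.10 FPKM in Brg1-deficient libraries. Both Brg1-deficient libraries lay under both controls, but the controls themselves differed 3.47-fold. Its log2 fold change, -3.55 (SE 0.562), was the most negative of the 8 genes tested but missed the threshold (limma, adjusted p = 0.0984). It was -2.66 without Brg1-sufficient library 1 and -4.43 without Brg1-sufficient library 2. Brg1-sufficient library 1 also had the highest sums of ILC2 and T cell genes, given above.

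*Prf1* (ENSMUSG00000037202; chromosome 10, 61297833 to 61304680) encodes perforin. It was low in every library, at 3.32 and 4.17 FPKM in controls and at 0.45 and 0.36 FPKM in Brg1-deficient libraries. The means differed 9.25-fold, close to the 9.04-fold of *Ifng*. On the log2(FPKM + 1) scale, which understates the change of low genes, the difference was -1.75 (SE 0.297; limma, adjusted p = 0.104). With 0.1 FPKM added in place of 1, it was -2.93, with an adjusted p of 0.102.

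**Figure D2:**
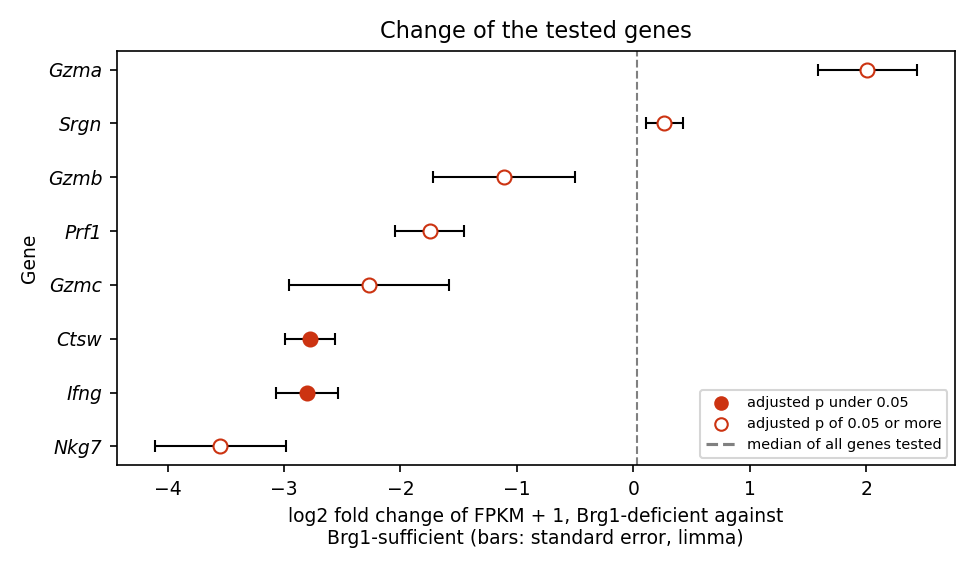
Log2 fold change of FPKM + 1 in Brg1-deficient against Brg1-sufficient ILC3s for the 8 genes tested, with the standard error from limma. *Ifng* and *Ctsw* (filled points, at -2.80 and -2.78) have an adjusted p under 0.05, *Gzma* is at 2.01, and the dashed line is the median of all genes tested, 0.03.

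Granzyme A differs from granzyme B in its specificity. Granzyme A cleaves after basic residues, whereas granzyme B cleaves after aspartate and can activate caspases. *Gzma* (ENSMUSG00000023132), on the minus strand of chromosome 13 from 113093825 to 113100981, had 50.8 and 102.8 FPKM in controls. In Brg1-deficient ILC3s it had 397 and 218 FPKM. Both values exceeded both controls, and the mean was 4.0-fold higher, at 307 ± 127 FPKM against 76.8 ± 36.8 FPKM (SD, n = 2 each). This difference, 2.01 on the log2 scale (SE 0.422), missed the threshold (limma, adjusted p = 0.153). Replicates differed 2.03-fold in controls and 1.82-fold in Brg1-deficient ILC3s, and the log2 fold change lay between 1.51 and 2.51 when one library was left out.

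*Gzmb* (ENSMUSG00000015437) and *Gzmc* (ENSMUSG00000079186) belong to another granzyme cluster, on the minus strand of chromosome 14, where *Gzmb* spans 56258838 to 56262260 and *Gzmc* spans 56231441 to 56234656. *Gzmb* was at 51.5 and 149 FPKM in controls and at 62.0 and 25.7 FPKM in Brg1-deficient libraries. The first Brg1-deficient library was above the first control, so the groups overlapped, with a log2 fold change of -1.11 (SE 0.61; limma, adjusted p = 0.529). *Gzmc* was at 53.2 and 156 FPKM in controls and at 32.2 and 9.99 FPKM in Brg1-deficient libraries. The groups did not overlap, with a log2 fold change of -2.27 (SE 0.687; limma, adjusted p = 0.272). Without Brg1-sufficient library 2 the log2 fold change was -0.36 for *Gzmb* and -1.47 for *Gzmc*.

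*Gzmb* and *Gzmc* had their higher value in the same library of each group. Brg1-sufficient library 2 exceeded library 1 by 2.89-fold in *Gzmb* and 2.93-fold in *Gzmc*, and Brg1-deficient library 1 exceeded library 2 by 2.41-fold and 3.22-fold. *Gzma* was also higher in these libraries than in the other of their group, while *Nkg7* had its higher control value in the other. The ratio of *Gzmb* to *Gzmc* was 0.968 and 0.957 in controls and 1.93 and 2.57 in Brg1-deficient libraries. *Gzmd*, *Gzme*, *Gzmf*, *Gzmg* and *Gzmn*, close relatives of *Gzmc* in the same cluster, did not exceed 0.80 FPKM in any library. Reads shared among such similar genes are divided by estimation, so the split between them is uncertain.

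The summed level of the 5 granzymes did not separate the groups, while the share of *Gzma* in it did. These shares and the ratios below were not tested, and no granzyme passed an adjusted p under 0.05. The sum was 157 and 408 FPKM in controls and 492 and 255 FPKM in Brg1-deficient libraries. *Gzma* made up 32.4% and 25.2% of it in controls and 80.7% and 85.4% in Brg1-deficient libraries. The ratio of *Gzma* to *Gzmb* was 0.986 and 0.69 in controls and 6.41 and 8.47 in Brg1-deficient libraries. The ratio of *Gzma* to *Prf1* was 15.3 and 24.7 in controls and 883 and 605 in Brg1-deficient libraries. *Prf1* was at only 0.45 and 0.36 FPKM in the latter, so the size of this ratio is uncertain. The ratio of *Gzma* to *Ifng* was 2.23 and 2.76 in controls against 116 and 67.6.

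**Figure D3:**
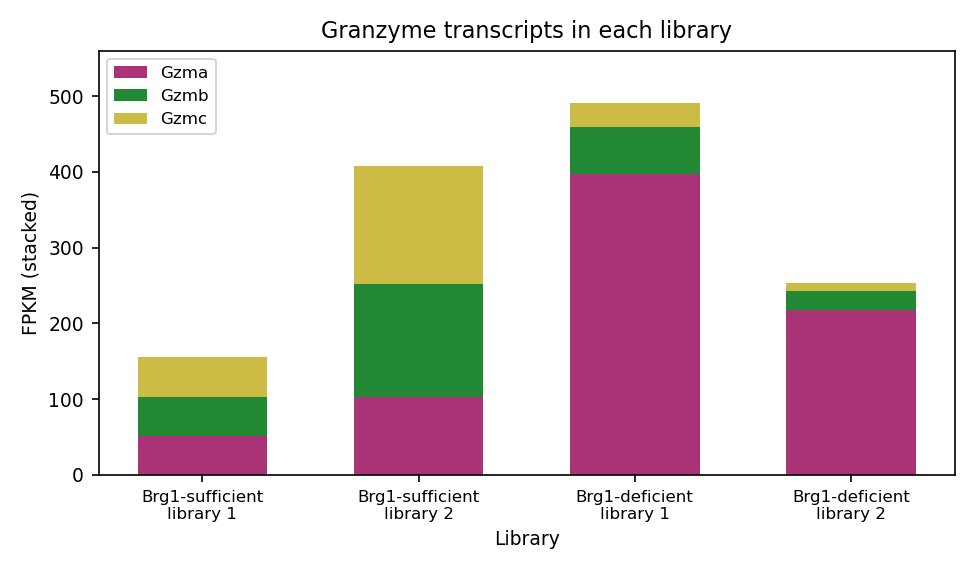
FPKM of *Gzma*, *Gzmb* and *Gzmc*, stacked, in each of the 4 libraries. The heights of the 2 groups overlap, and *Gzma* takes 32.4% and 25.2% of the granzyme sum in the Brg1-sufficient libraries and 80.7% and 85.4% in the Brg1-deficient libraries.

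*Gzmk* (ENSMUSG00000042385; chromosome 13, 113171608 to 113225908), the neighbour of *Gzma*, was at 0.73 and 0.12 FPKM in controls and at 0.18 and 0.45 FPKM in Brg1-deficient libraries. It overlaps *Esm1*, a gene on the opposite strand that did not exceed 0.42 FPKM. *Gzmm* (ENSMUSG00000054206; chromosome 10, 79689020 to 79695261) was at 0.53 and 0.85 FPKM against 0.51 and 1.04 FPKM. Neither separated the groups, and neither passed the limit of a mean above 1 FPKM. *Srgn* (ENSMUSG00000020077; chromosome 10, 62493833 to 62527451) encodes serglycin, the proteoglycan that binds granzymes and perforin inside granules. It was by far the most abundant of the 10 genes, at 1302 and 1190 FPKM in controls and at 1640 and 1363 FPKM in Brg1-deficient libraries. It ranked 68 and 53 among the genes tested in the respective groups. Both Brg1-deficient values were higher, but by 0.26 on the log2 scale (SE 0.159; limma, adjusted p = 0.568).

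By mean FPKM the order in controls was *Srgn*, *Gzmc*, *Gzmb*, *Ctsw*, *Nkg7*, *Gzma*, *Ifng*, *Prf1*, *Gzmm* and *Gzmk*. From *Gzmc* to *Gzma*, at means of 104 to 76.8 FPKM, neighbours overlapped in their 2 values, so their order is not resolved, and *Gzmm* and *Gzmk* overlapped as well. In Brg1-deficient ILC3s *Gzma* stood between *Srgn* and *Gzmb*, and the order went on with *Gzmc*, *Ctsw*, *Nkg7*, *Ifng*, *Gzmm*, *Prf1* and *Gzmk*. There *Gzmb* overlapped with *Gzmc*, *Gzmc* with *Ctsw*, and *Prf1* with *Gzmk*.

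The promoter sequences of 4 genes are shown because these genes differed without overlap in opposite directions, *Gzma* upward and the others downward. They are the bases before the start of the gene (250 bases, or for *Prf1* the 247 that lie outside the GENCODE gene), from RefSeq on GRCm38.p6, 5′ to 3′ on the strand of the gene. Capitals mark matches of the Runx motif TGTGGT or its reverse ACCACA, and of the TATA motif TATAAA or its reverse TTTATA.

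Ifng, chr10:118440796-118441045, plus strand: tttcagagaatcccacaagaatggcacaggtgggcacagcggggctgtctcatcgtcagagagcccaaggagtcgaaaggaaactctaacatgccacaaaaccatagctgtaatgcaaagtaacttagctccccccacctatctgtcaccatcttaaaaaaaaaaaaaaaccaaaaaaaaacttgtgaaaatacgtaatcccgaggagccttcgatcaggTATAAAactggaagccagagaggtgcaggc
Gzma, chr13:113100982-113101231, minus strand: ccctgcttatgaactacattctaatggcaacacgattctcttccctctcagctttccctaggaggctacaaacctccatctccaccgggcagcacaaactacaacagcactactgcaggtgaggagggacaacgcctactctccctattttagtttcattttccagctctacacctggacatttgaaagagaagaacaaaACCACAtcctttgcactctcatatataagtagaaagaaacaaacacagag
Gzmc, chr14:56234658-56234907, minus strand: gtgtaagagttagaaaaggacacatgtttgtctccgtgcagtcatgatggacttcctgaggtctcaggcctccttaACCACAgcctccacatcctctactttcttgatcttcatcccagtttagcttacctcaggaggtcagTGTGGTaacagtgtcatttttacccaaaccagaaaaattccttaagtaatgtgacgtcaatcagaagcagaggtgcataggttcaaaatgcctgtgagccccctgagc
Prf1, chr10:61297586-61297832, plus strand: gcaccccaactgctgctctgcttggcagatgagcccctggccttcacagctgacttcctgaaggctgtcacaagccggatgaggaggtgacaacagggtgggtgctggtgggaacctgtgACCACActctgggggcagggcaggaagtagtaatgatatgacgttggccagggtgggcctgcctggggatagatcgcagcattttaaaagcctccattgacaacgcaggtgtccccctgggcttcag

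RefSeq windows were matched for 9 of the 10 genes, with 11 windows in all, and *Ctsw* had none. Motifs were sought in the 250 bases before the start, on both strands. They were chosen with these promoters in view, and a gene with more windows had more chances of a match. The shares of all promoters are therefore given for scale and are no test of enrichment. TGTGGT was found for 7 of the 9 genes (7 of the 11 windows) and in 14.0% of the 32851 promoters of the table. Counted from the RefSeq start, with -1 the base before it, the matches began at -50 in *Gzma*, at -174 and -108 in *Gzmc*, and at -130 in *Prf1*. The *Ifng* window held none, and its TATAAA began at -30. TATAAA was also found for *Srgn*, and in 12.4% of all promoters. The T-box motif GGTGTGA, the core of sites that T-bet can bind, was found for *Gzmk*, *Gzmm* and *Nkg7* and in 3.33% of all promoters. In *Nkg7* it began at -13, which is inside the gene as GENCODE places it. In *Gzmm* it lay before another RefSeq start, inside the GENCODE gene, as did the TGTGGT match of *Srgn* and its match of the IRF motif below. The ETS motif AGGAAGT was found for *Gzmc* and *Prf1* (7.69% of all promoters). The STAT motif TTCNNNGAA was found for *Gzmm*, *Ifng* and *Nkg7* (7.02%), and the AP-1 motif TGANTCA for *Gzmb* (6.75%). The IRF motif, GAAA repeated with any pair of bases between, was found for *Gzma* and *Srgn* (2.98%), and the CRE motif TGACGTCA for *Gzmc* (1.55%). TGTGGT was thus found both for *Gzma*, which was higher without overlap, and for *Gzmc*, *Prf1* and *Nkg7*, which were lower without overlap.

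Of the protein-coding genes around *Ifng* and *Gzma*, 3 were tested and none passed an adjusted p under 0.05. Of the protein-coding genes nearest to *Ifng* on one side, *Gm9048* and *Gm9049* did not exceed 0.90 FPKM. On the other side, *Dyrk2* was at 5.29 and 4.61 FPKM in controls and at 4.18 and 4.33 FPKM in Brg1-deficient libraries. *Cand1*, 753.4 kb from *Ifng*, was at 36.4 and 32.04 FPKM against 20.5 and 16.03 FPKM, lower without overlap (-0.88 on the log2 scale; limma, adjusted p = 0.152). Next to *Gzma* and *Gzmk*, *Cdc20b* was 2.6 kb away and did not exceed 0.19 FPKM, and *Gpx8* did not exceed 1.30 FPKM. On the far side *BC067074* did not exceed 0.25 FPKM, and *Snx18* was at 19.98 and 16.9 FPKM against 16.4 and 15.6 FPKM (log2 fold change -0.19, adjusted p = 0.672 from limma).

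Genes with a profile most like that of *Ifng* were sought among 8088 other protein-coding genes above 5 FPKM in either group, by the Euclidean distance of log2(FPKM + 1) over the 4 libraries after centring. The nearest was *Ctsw* itself, at a distance of 0.296 on the log2 scale, followed by *Ly6a*, *Ckb*, *Ccl21a* and *Zmat4*, at up to 0.508. *Ccl21a* has near-identical copies in the genome, so its value is uncertain. *Ly6a*, which encodes the surface protein Sca-1, was at 129 and 165 FPKM in controls and at 18.2 and 23.8 FPKM in Brg1-deficient libraries. *Ckb*, a creatine kinase gene, went from 380 and 549 FPKM to 90.2 and 83.7 FPKM. For *Gzma* the nearest were *Tubb2b*, *Lypd1*, *P2rx1*, *Krt18* and *Aspa*, at distances of 0.336 to 0.58. *Krt18* was at 2.02 and 3.48 FPKM in controls and at 15.7 and 12.9 FPKM in Brg1-deficient libraries. It is a keratin gene on the list of 10 epithelial markers, whose summed FPKM was 5.76 and 7.56 in controls and 22 and 18.4 in Brg1-deficient libraries. Of the 4 tested, 3 were higher without overlap, *Krt18*, *Krt8* (0.44 and 0.38 against 2.65 and 2.34 FPKM) and *Defa24* (0 and 0.58 against 1.48 and 1.14 FPKM), and *Epcam* was lower without overlap. Among all genes tested, 24.4% were higher and 20.2% lower without overlap. In any library *Epcam* did not exceed 1.79 FPKM, *Vil1* did not exceed 0.38 FPKM and *Fabp1* did not exceed 0.34 FPKM, and the part of epithelial cells in the values of *Gzma* was not tested. These likenesses rest on 4 libraries and are a description only.

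Related genes were taken from 5 lists, of which 63 genes were tested. None of the 63 passed an adjusted p under 0.05 in limma. At an unadjusted p under 0.05, 12 of the 63 were lower and 7 higher, against 6.47% and 6.12% of all genes tested. The 3 genes with the smallest p are named for each list. The counts of genes without overlap given for each list stand beside 20.2% lower and 24.4% higher among all genes tested, and shares near these are no result about a list.

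The transcription factors and receptors upstream of *Ifng* had 8 of 15 tested genes lower without overlap, 4 higher and a median log2 fold change of -0.27. *Zeb2*, a repressor that acts with T-bet in the maturation of NK cells, was at 22.5 and 13.5 FPKM in controls and at 4.19 and 3.21 FPKM in Brg1-deficient libraries (log2 fold change -1.98, adjusted p = 0.086 from limma). *Tbx21*, which encodes T-bet, was lower by a log2 fold change of -1.54 (adjusted p = 0.119). *Bhlhe40*, a factor that promotes cytokine production, was at 1293 and 1121 FPKM against 767 and 687 FPKM (log2 fold change -0.73, adjusted p = 0.148). *Il18r1*, a chain of the IL-18 receptor, was at 68.5 and 74.6 FPKM in controls and at 89.2 and 86.8 FPKM in Brg1-deficient libraries, higher without overlap (limma, adjusted p = 0.453). *Stat4*, which signals from the IL-12 receptor, was at 82.1 and 72.2 FPKM against 101 and 84.1 FPKM, and *Il12rb2* did not exceed 0.71 FPKM. *Il18r1*, *Stat4* and *Il12rb2* were added to the named genes after their values were seen.

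Among the interferon gamma receptor and response genes, 5 of 19 tested were lower without overlap, 4 were higher, close to the shares among all genes, and the median log2 fold change was 0.07. *Cxcl10*, a chemokine gene induced by interferons, was at 74.0 and 88.6 FPKM in controls and at 269 and 218 FPKM in Brg1-deficient libraries, opposite in direction to *Ifng* (log2 fold change 1.57, adjusted p = 0.0548 from limma). *Gbp4*, a guanylate-binding protein gene, was at 40.1 and 44.5 FPKM against 71.7 and 80.5 FPKM (log2 fold change 0.83, adjusted p = 0.111). *Ifngr1*, which encodes the ligand-binding chain of the receptor, was at 356 and 276 FPKM against 177 and 130 FPKM (log2 fold change -1.04, adjusted p = 0.148).

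The granule exocytosis machinery had 3 of 14 tested genes lower without overlap, 1 higher, 10 overlapping and a median log2 fold change of 0.00194, and its share of lower genes was close to that of all genes. *Rab27a*, the small GTPase that docks granules at the membrane, was at 39.6 and 33.0 FPKM in controls and at 22.1 and 19.6 FPKM in Brg1-deficient libraries (log2 fold change -0.77, adjusted p = 0.166 from limma). *Stxbp2* and *Stx11*, a pair of fusion proteins, had log2 fold changes of -0.29 and -0.26, with adjusted p of 0.566 and 0.604. Of the list on granzyme processing and protection, 3 of 11 tested genes were lower without overlap, 1 was higher and 7 overlapped, with a median of -0.13. *Ctsl* and *Ctsc* encode the lysosomal proteases cathepsin L and cathepsin C, and the latter activates granzymes by removing a dipeptide. *Ctsl* was at 164 and 127 FPKM against 67.3 and 44.9 FPKM (log2 fold change -1.37, adjusted p = 0.111). *Ctsc* lay the other way, at 86.1 and 104 FPKM against 138 and 179 FPKM (log2 fold change 0.73, adjusted p = 0.221). *Serpinb9*, an inhibitor of granzyme B, was at 86.9 and 114 FPKM against 75.4 and 55.8 FPKM (log2 fold change -0.61, adjusted p = 0.354).

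Of the 4 tested genes among the other granzymes and death ligands, 1 was lower and 1 higher without overlap, and the median log2 fold change was 0.21. *Ltb*, the lymphotoxin beta gene, was at 473 and 491 FPKM in controls and at 243 and 317 FPKM in Brg1-deficient libraries (log2 fold change -0.79, adjusted p = 0.16 from limma). *Tnf* was at 138 and 232 FPKM against 288 and 353 FPKM (log2 fold change 0.83, adjusted p = 0.316). *Tnfsf10*, which encodes the death ligand TRAIL, overlapped between the groups (log2 fold change 0.37, adjusted p = 0.671).

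**Figure D4:**
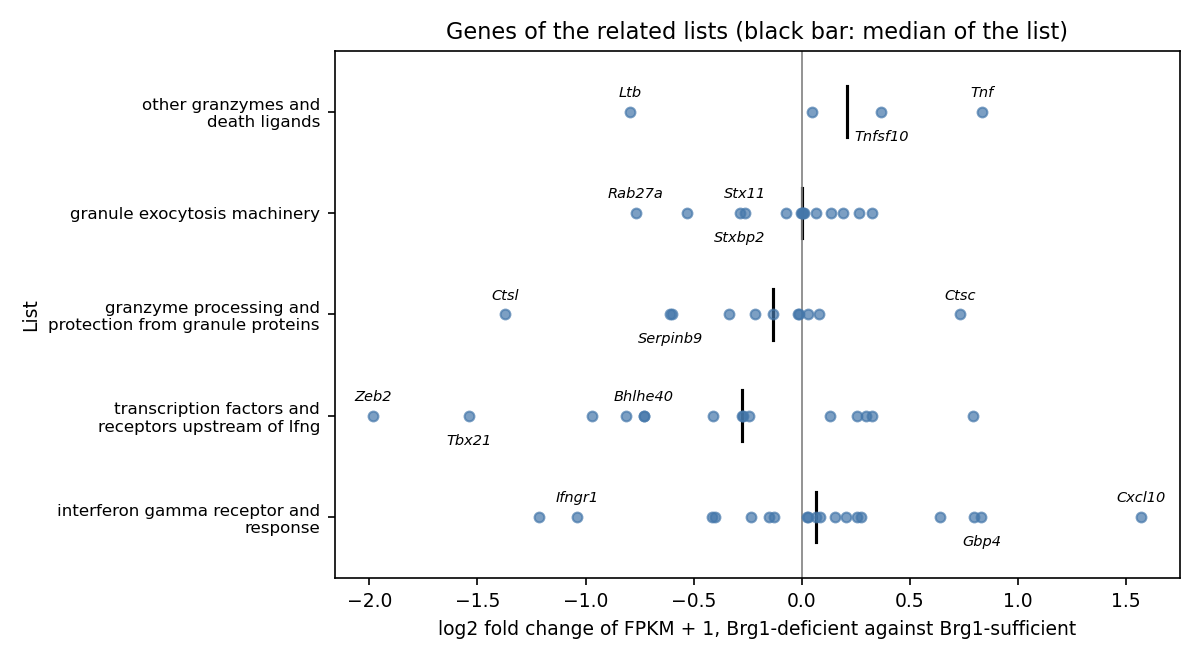
Log2 fold change of FPKM + 1 in Brg1-deficient against Brg1-sufficient ILC3s for the 63 tested genes of 5 related lists. Each point is a gene, black bars are list medians (between -0.27 and 0.21), and the 3 genes with the smallest p in each list are named. *Zeb2* (-1.98) and *Cxcl10* (1.57) lie farthest from 0 on either side.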

How the data were processed

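RNA-seq values for 4 libraries, 2 of Brg1-sufficient and 2 of Brg1-deficient ILC3s, were taken as deposited. The authors mapped reads to GRCm38.p5 with STAR v2.5, estimated gene levels with RSEM v1.2 (GENCODE M16) and deposited them as FPKM. The sorted values are nearly identical between libraries, as quantile normalization gives, which the sources used here do not name. Depth is unknown. Libraries were grouped by their sample titles.

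For testing, limma 3.58.1 (lmFit, eBayes with trend; R 4.3.3) was run on log2(FPKM + 1) for genes whose mean exceeded 1 FPKM in at least one group. Adjustment was by Benjamini-Hochberg over all of them. The scripts were tested on simulated data. Positions came from GENCODE M21 (GRCm38), which held 53274 of the 53379 gene identifiers, and promoters from RefSeq (GRCm38.p6). The 10 genes, the lists and the tests were chosen with earlier results of these data known, and the motifs with the promoters in view. The named genes are the 10, *Smarca4*, the 3 genes with the smallest p of each list (or those with an adjusted p under 0.05 where there were at least 4), the 5 genes most like *Ifng* and *Gzma*, the nearest neighbours and markers that moved with them. *Vamp7* of the exocytosis list was not analysed here, and 1 marker gene is not reported here. The alternatives were another pseudocount, other filters, quantile normalization, no trend, a replicate block and each library left out.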

Additional observations from a re-analysis of the deposited data

How the results depend on the processing

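With no filter on low FPKM (44235 genes tested) and with limma without trend, 0 genes passed as lower and 0 as higher (adjusted p under 0.05) in place of 33 and 12, where 1400 and 1308, or 965 and 903, had an unadjusted p under 0.05. The adjusted p of *Ifng* was then 0.0912 and 0.124, so 0 of the 10 genes were lower in place of 2 (5 at an unadjusted p under 0.05 in both fits). When the mean had to exceed 5 FPKM, 73 genes were lower and 41 higher, 3 of them among the 10 (*Nkg7* at an adjusted p of 0.0498), and of the related lists 1 gene was lower and 1 higher in place of 0 and 0. Without one library the counts were 0 and 0 over all genes, 0 and 0 over the 10 and 0 and 0 over the related lists, where 509 to 1331 genes were lower and 521 to 1489 higher at an unadjusted p under 0.05, among them 4 or 5 lower genes of the 10. There a lone library is assumed to vary like the other group. The cause of these shifts was not tested, except that fewer libraries or more genes tested enter the fit.

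Under a replicate block on the library number, 248 genes (1.68%) were lower and 150 (1.02%) higher. Of the 10 genes, 3 were lower (*Ifng*, *Ctsw* and *Nkg7*) and 1 higher (*Gzma*, adjusted p = 0.022), and of the related lists 3 were lower and 2 higher. The deviations of same-numbered libraries had a correlation of -0.00039 across genes, and no source used here says that the numbers pair them. The summed FPKM of 9 macrophage and dendritic cell genes was higher in library 2 of both groups. It was 128 and 277 in controls and 89.1 and 250 in Brg1-deficient libraries. The sum of the 5 granzymes was higher in library 2 of controls only. Whether the libraries are paired is therefore not known, and the calls of *Gzma* and *Nkg7* depend on it. With 0.1 FPKM added and with quantile normalization, the calls among the 10 were as in the report, *Ifng* and *Ctsw*. The sorted values were nearly identical between libraries as deposited, so quantile normalization could hardly change these calls. No fold change of the 8 tested genes changed sign in the 79 values computed under 10 alternatives. Most of these signs were fixed beforehand, so the count is no test of stability. The filters, the trend and the block leave a fold change as it is. Leaving out a library cannot reverse one whose groups do not overlap.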
